A study of Mus musculus with 21 samples.

Results

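The ribosomal protein genes of mouse were taken as every gene symbol of the count table that names a protein of the cytosolic large subunit (Rpl, with Rplp0 to Rplp2) or small subunit (Rps, with Rpsa), paralogs included and pseudogenes not. The rule uses names alone and gave 84 of 22058 genes, 52 of the large and 32 of the small subunit. They were measured by QuantSeq, which reads a tag near the 3′ end of each mRNA and carries molecular identifiers that let PCR copies be removed, in the anterior right brain hemisphere of 21 C57Bl6/J mice. Of these, 9 (5 female, 4 male) were eIF2B HOM, homozygous for the R191H change knocked in to Eif2b5 as a model of vanishing white matter disease, and 12 (7 female, 5 male) were wild-type mice from the same heterozygous breeding. Counts at transcript ends cannot check this single-base allele. The labels give a batch number: 4 eIF2B HOM with 8 wild-type animals form batch 1, at ages of 104 to 114 days, and 5 eIF2B HOM with 4 wild-type animals form batch 2, at 90 to 104 days. Batch and age are thus confounded. The median eIF2B HOM age exceeded that of wild-type in batch 1 (110.5 and 105 days) and in batch 2 (93 and 91.5 days), where the older eIF2B HOM mice, of 101 and 104 days, were also its only eIF2B HOM males.

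Most ribosomal proteins are made in equal amounts for assembly in the nucleolus. There they join ribosomal RNA to form the small subunit, which reads the mRNA, and the large subunit, which joins amino acids. Their mRNAs are among the most abundant of a cell, and most begin with a C followed by an unbroken run of C and T (U in the RNA), the terminal oligopyrimidine or TOP motif, through which mTORC1 and LARP1 control their translation and stability. eIF2B reloads eIF2 with GTP for each round of initiation, and when it fails the integrated stress response lowers initiation in general and raises translation of ATF4. In the brain all cell types carry ribosomes, so the members mark no cell type, and in bulk tissue fewer cells of a type and less RNA per cell cannot be told apart.

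The start sites are shown because the TOP motif lies there and the naming rule did not use it. The RefSeq promoter set used here (GRCm38.p6) holds a start for 64 of the 84 members. In the window from 10 bases before to 20 bases after the start, 37.5% of these 64 genes had an unbroken C or T run of 8 or more bases, against 13% of 27025 genes. A C at the first transcribed base followed by at least 4 more pyrimidines was present in 20.3% of the members and 3.01% of all genes. The letters CTTTC were found on the gene's own strand in 23.4% of the members and 4.43% of all genes, and on the opposite strand in 4.69% and 4.31%. CTCTTT, which can overlap CTTTC, was found in 10.9% and 1.2% on the gene's own strand, and in 1.56% and 1.16% on the other. CTTCC was found in 21.9% and 7.49% on the gene's own strand, and in 14.1% and 8.67% on the other. A match is a description of these windows and depends on the start that RefSeq lists. The following windows, written 5′ to 3′ on the gene's own strand, have the longest C or T run in capitals. Rpl38, Rps18 and Rps10 start within such a run, Rpl12 and Rpl22l1 hold a run that does not reach the listed start base, and Rps3 and Rpl37a have hardly any.

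Rpl38 (chr11:114668570-114668599, plus strand): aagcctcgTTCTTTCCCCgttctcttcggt

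Rps18 (chr17:33955646-33955675, minus strand): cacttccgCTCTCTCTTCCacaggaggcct

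Rps10 (chr17:27635225-27635254, minus strand): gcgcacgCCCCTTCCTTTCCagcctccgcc

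Rpl12 (chr2:32961702-32961731, plus strand): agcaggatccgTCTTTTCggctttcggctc

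Rpl22l1 (chr3:28805498-28805527, plus strand): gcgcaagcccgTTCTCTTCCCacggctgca

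Rps3 (chr7:99483690-99483719, minus strand): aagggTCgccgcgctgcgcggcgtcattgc

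Rpl37a (chr1:72711250-72711279, plus strand): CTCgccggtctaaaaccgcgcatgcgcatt

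Library totals were 727018 to 2215650 counts in batch 1 and 1108492 to 3100141 in batch 2. Of the 84 members, 80 passed a filter on low counts and entered fits over 9192 genes, among them 48 of the large and all 32 of the small subunit. In those fits an adjusted p is from edgeR's quasi-likelihood test with Benjamini-Hochberg adjustment over the 9192 genes, and a member was called at an adjusted p under 0.05. Levels are in CPM, counts scaled to library size with TMM factors. Since a 3′ library gives a fragment near the end of each transcript, CPM can be compared between genes without a length correction, but 49 of the members share at least 1 window of 100 bases in the last 300 bases of a transcript with another gene, mostly pseudogenes, and reads from such windows may be lost from the count. That share was 100% for 6 members, among them Rps27, Rpl10 and Rpl36a, and 0% for 35 members. Windows were matched on both strands. For Rpl31 (100%), Rpl5 (100%) and Rps25 (54.7%) the only such gene overlaps the member on the opposite strand. A shared window is then not a second copy elsewhere.

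Single members spanned a wide range of levels, and the low end includes the paralogs Rpl36al and Rpl7l1. The most abundant transcripts on the CPM scale were Rps21, with a mean of 2910 over the 21 mice, Rpl37 with 2900, Rps29 with 2720 and Rps14 with 2350. Rps29 and Rpl37 are small zinc-binding proteins, and RPS14 is the gene lost in the human 5q- syndrome. The lowest means of tested members were 9.48 for Rpl36al, 25.6 for Rps6, the protein phosphorylated by the S6 kinases, 28.6 for Rpl7l1 and 39.4 for Rpl10a. For Rps6, 79.1% of the end windows are shared with other genes, and for Rpl10a 84.1%, so the levels of both are uncertain. The part of shared sequence in the low levels was not tested.

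Counts of the members made up 3.64 to 7.24% of a library. The 12 batch 1 libraries lay between 4.57 and 7.24% (median 5.05) and the 9 batch 2 libraries between 3.64 and 4.22% (median 3.83), so the batches did not overlap. Genotypes overlapped widely, with 3.64 to 6.08% (median 4.22) in eIF2B HOM and 3.75 to 7.24% (median 4.74) in wild-type mice. Within batch 1 the medians were 5.07% in eIF2B HOM and 4.98% in wild-type mice, and within batch 2 they were 3.78% and 3.89%. Both subunits showed the same order. Large subunit genes took 2.17 to 3.48% in batch 1 and 1.71 to 2.03% in batch 2, and small subunit genes took 2.36 to 3.76% and 1.93 to 2.19%. The ratio of small to large subunit counts stayed between 1.06 and 1.15 in every library.

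**Figure D1:**
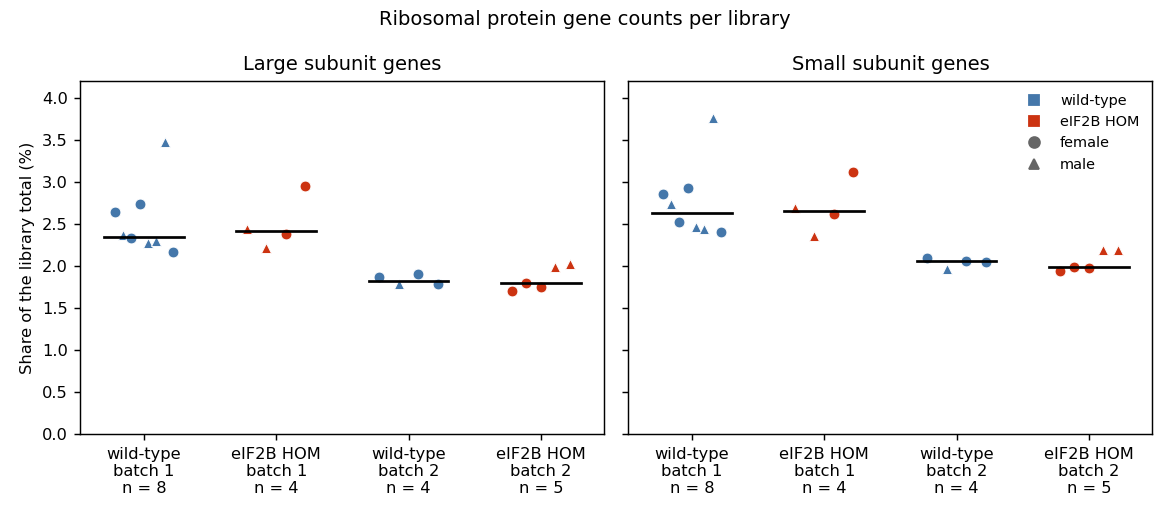
Share of each library's total counts (%, vertical axis) in the 52 large (left) and 32 small subunit genes (right), by genotype and batch; each point is 1 mouse, ordered by age within a group, circles are females, triangles males and bars the group medians. All batch 2 libraries lie below all batch 1 libraries in both panels, with large subunit shares of at most 2.03% against at least 2.17%.

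A single library stands apart. Wild-type replicate 8, a male of 113 days in batch 1, had the highest share of all (7.24%) and also the highest summed CPM of oligodendrocyte markers (11331) and the highest share in nuclear respiratory chain genes (3.76%), with a neuron marker sum of 4863 CPM that was the second lowest. The counts of members called for batch, genotype and age are given below with and without it. Between batches, the summed oligodendrocyte markers (8 genes) ranged from 4583 to 11331 CPM in batch 1 and from 4149 to 6528 in batch 2, the astrocyte markers (8 genes) from 7020 to 11487 and 4877 to 9937, and the neuron markers (10 genes) from 4846 to 6677 and 5998 to 7497. Taken singly, 2 of the 8 oligodendrocyte markers were lower in batch 2 and 1 higher (median log2 fold change 0.03). Of the 8 astrocyte markers 4 were lower and 0 higher (median -0.28), and of the 10 neuron markers 7 were higher and 0 lower (median 0.40). Over all genes 11.4% were lower and 10.2% higher (edgeR). The sums are weighted to the most abundant markers and need not follow these medians. No neuron, astrocyte or oligodendrocyte marker was at 0 in the table. The part of cell composition in the results on the members was not tested.

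The batches differed in nearly all members. With genotype and sex in the model, 72 of the 80 members were lower in batch 2 and none was higher, where 11.4% of all 9192 genes were lower and 10.2% higher, 21.6% in all (edgeR's quasi-likelihood test, Benjamini-Hochberg). At an unadjusted p under 0.05 the count was 76, beside 34.1% of all genes. limma voom with quality weights called 72 members lower and DESeq2 73, and neither called any higher. The median log2 fold change of the members (batch 2 minus batch 1) was -0.54, against -0.001 over all genes, with 43 of 48 large subunit genes called (median -0.58) and 29 of 32 small subunit genes (median -0.50). For 26 members the 12 batch 1 values all lay above the 9 batch 2 values, which holds for 0.642% of all genes tested, while 0.272% had all values higher in batch 2 and no member did. The count was 73 without wild-type replicate 8, and 68 to 74 when each mouse was left out in turn.

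Rpl12, which sits at the base of the ribosomal stalk, had the smallest p (ENSMUSG00000038900, chr2:32961559-32965345). Its level was 578 to 1290 CPM (median 719) in batch 1 and 388 to 485 CPM (median 433) in batch 2. In batch 2 its eIF2B HOM mice had 433, 481, 388, 389 and 422 CPM and its wild-type mice 411, 478, 485 and 476, and no value reached the lowest of batch 1. The log2 fold change was -0.76 ± 0.10 (SE), with an adjusted p from edgeR of 2.52e-05. Rpl37a, another zinc-binding protein, fell from 933 ± 173 CPM (SD, 12 mice) to 576 ± 75.1 (9 mice), and Rpl38, known in mouse for its part in the translation of Hox mRNAs, from 884 ± 184 to 545 ± 51.9 CPM. Neither gene's batches overlapped. Rpl32 had 596 to 1210 CPM in batch 1 and 422 to 555 CPM in batch 2, a log2 fold change of -0.63 ± 0.10.

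Rplp0, the acidic protein that anchors the stalk, had 218 to 394 CPM (median 277) in batch 1 and 149 to 246 CPM (median 180) in batch 2. Here 10 of the 12 batch 1 values lay above every batch 2 value, and the log2 fold change was -0.67 ± 0.10. Rplp1, a further stalk protein, fell from 1900 ± 440 to 1200 ± 220 CPM. Rpl10a, of the large subunit's other stalk, fell from 49.3 ± 11.3 to 26.1 ± 3.88 CPM, a log2 fold change of -0.89 ± 0.13. Rps4x, a small subunit gene on the X chromosome, had 176 to 303 CPM in batch 1 and 107 to 180 CPM in batch 2, where its highest values, 180 and 156, belonged to the eIF2B HOM males of 104 and 101 days. The same 2 mice had the highest member shares of their batch, 4.22 and 4.18%.

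The fitted change was largest for Rps6, at -1.34 ± 0.45 on the log2 scale, but its values overlapped (7.54 to 98.4 CPM in batch 1, 7.56 to 26.0 in batch 2) and 6 of the 12 batch 1 values lay above all of batch 2. Of the 4 most abundant members, Rps21 fell from 3600 ± 954 to 2000 ± 246 CPM, a log2 fold change of -0.81 ± 0.12. The other 3 had estimates of -0.38 to -0.32, with Rps29 falling from 3030 ± 334 to 2310 ± 138, Rpl37 from 3190 ± 424 to 2520 ± 122 and Rps14 from 2590 ± 377 to 2040 ± 162. Among the 37 tested members of 500 CPM or more the median log2 fold change was -0.49, and among the 43 below 500 CPM it was -0.63. The medians were -0.50 over the 32 tested members with no shared end window and -0.58 over the 48 with some. Over the 24 members whose start window holds a C or T run of 8 or more bases, such as Rpl38 and Rps18, the median was -0.64, and over the 36 tested members with a shorter run, such as Rpl12 and Rps3, it was -0.54. These medians were not tested against each other.

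Among the 8 members that were not called were Rpl31, Rpl36al, Rpl7l1, Rpl8, Rps13, Rps20 and Rps26. Rps26, which lines the mRNA exit channel, had 687 ± 71.6 CPM in batch 1 and 661 ± 46.6 in batch 2, with a log2 fold change of -0.06 ± 0.08 (adjusted p from edgeR 0.642). Only Rpl36al, at 0.33 ± 0.19, and Rpl7l1, at 0.05 ± 0.12, had estimates above 0, and both are paralogs of canonical members. Rpl8, Rpl31, Rps13 and Rps20 are named after their values were seen and had unadjusted p of 0.013, 0.0137, 0.0279 and 0.047 (edgeR).

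**Figure D2:**
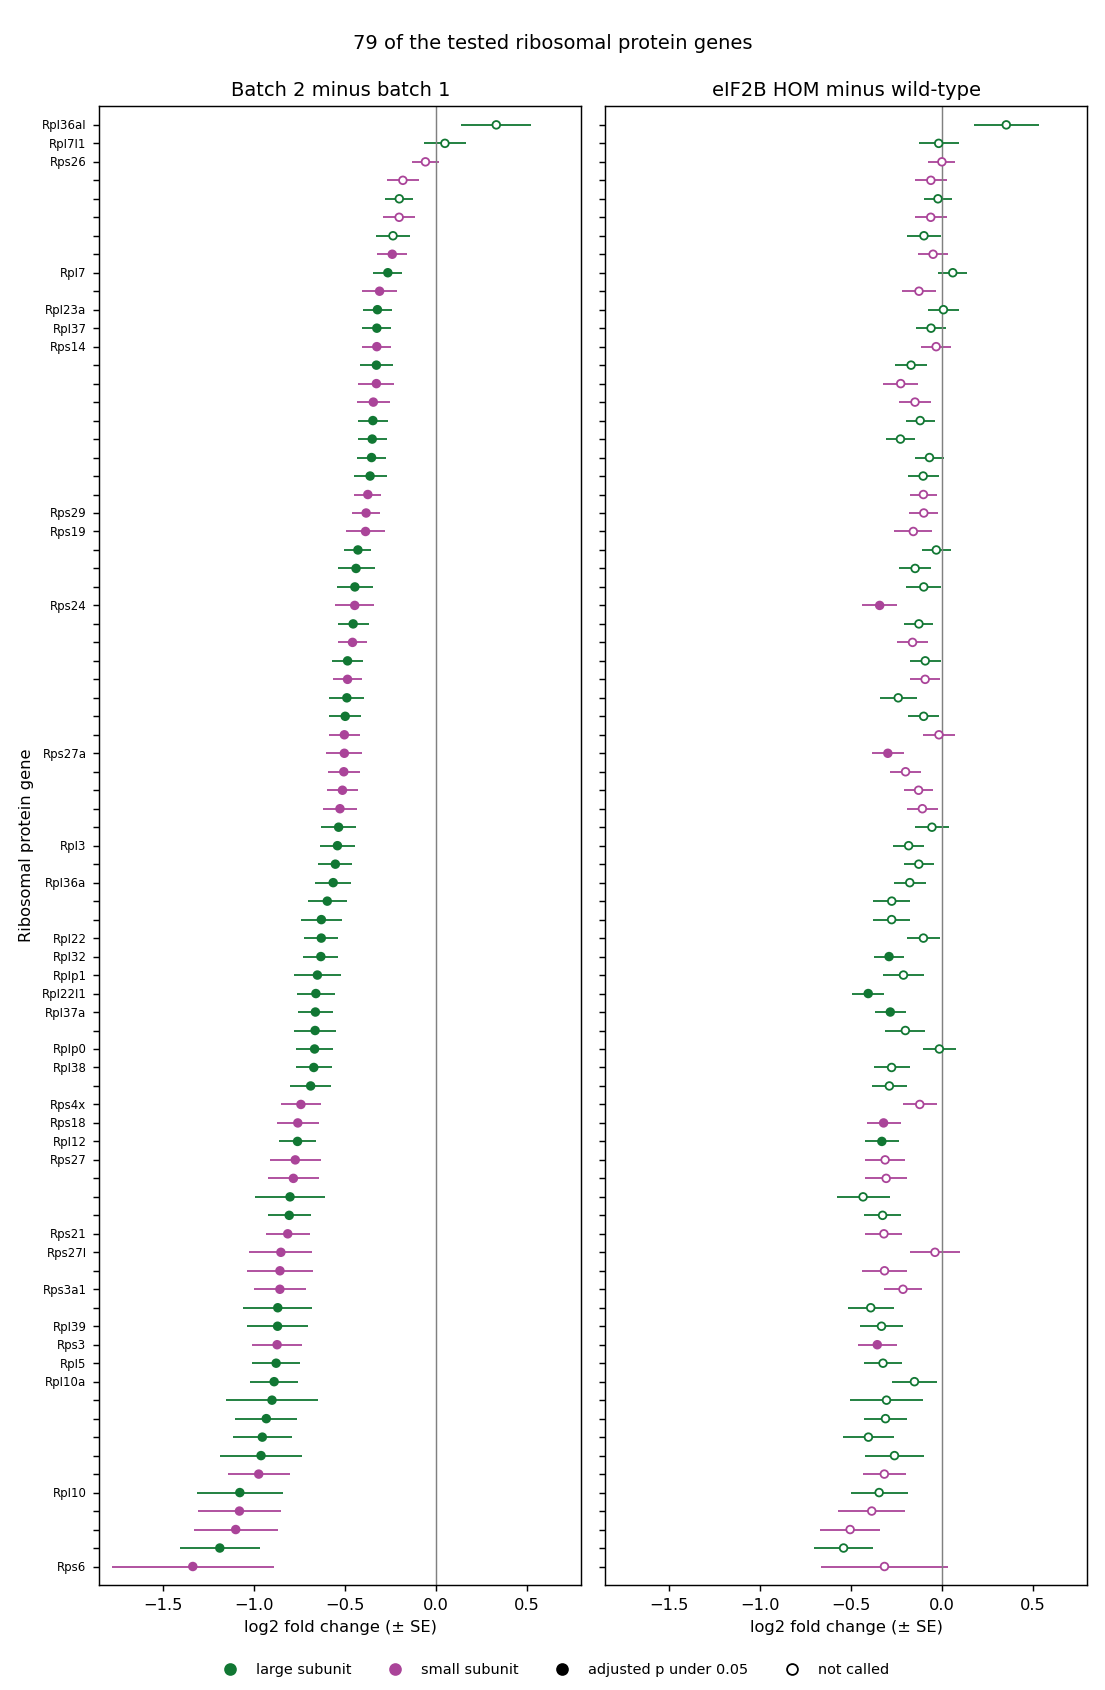
Log2 fold change (horizontal axis, with SE bars) of 79 of the 80 tested members, ordered by the batch estimate and with the symbols of the members named by rule, for batch 2 minus batch 1 (left) and eIF2B HOM minus wild-type (right); green is the large and purple the small subunit, filled points are called. On the left 72 points are filled and all of these lie below 0, and on the right 8 are filled, all below 0.

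The difference between batches was present in each genotype but cannot be told apart from age. In eIF2B HOM mice alone 47 members were lower in batch 2 (median -0.57, beside 2.05% of all genes), and in wild-type mice alone 49 (median -0.52, beside 5.26%). In females alone the count was 69 (beside 13.3%). In males alone it was 0, with 41 members at an unadjusted p under 0.05 and a median of -0.46, and none of the 9130 genes was called in that fit. With age added to the model the median was -0.26 and no member was called, with 15 at an unadjusted p under 0.05, and no gene of the whole table was called. Among mice of 101 to 108 days, 7 of batch 1 and 2 of batch 2, the median was also -0.26, with 0 members called (beside 0.0112% of all genes) and 25 at an unadjusted p under 0.05. With the log2 library total as a covariate 27 members were called lower (median -0.46, beside 1.08%), and with only libraries of at least 1000000 counts 56 (beside 3.44%).

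Age itself was read from the genotype model, which holds sex and age and no batch. There 70 of 80 members rose with age and none fell, beside 14.6% of all genes that rose and 12.2% that fell (26.8% in all; at an unadjusted p under 0.05 73 members and 38.2% of genes), with a median of 0.03 on the log2 scale per day. Without wild-type replicate 8 the count was 68. The members with the smallest p were Rps18, Rps3, Rps3a1, Rps4x and Rpl5, at 0.050, 0.056, 0.056, 0.047 and 0.056 per day. Rps18 had 217 to 330 CPM in batch 2 and 331 to 712 CPM in batch 1. With batch in the model no member was called for age, with 36 at an unadjusted p under 0.05 and a median of 0.02 per day. Within batch 1 and within batch 2 alone the counts were also 0, with 4 and 23 members at an unadjusted p under 0.05 (edgeR).

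**Figure D3:**
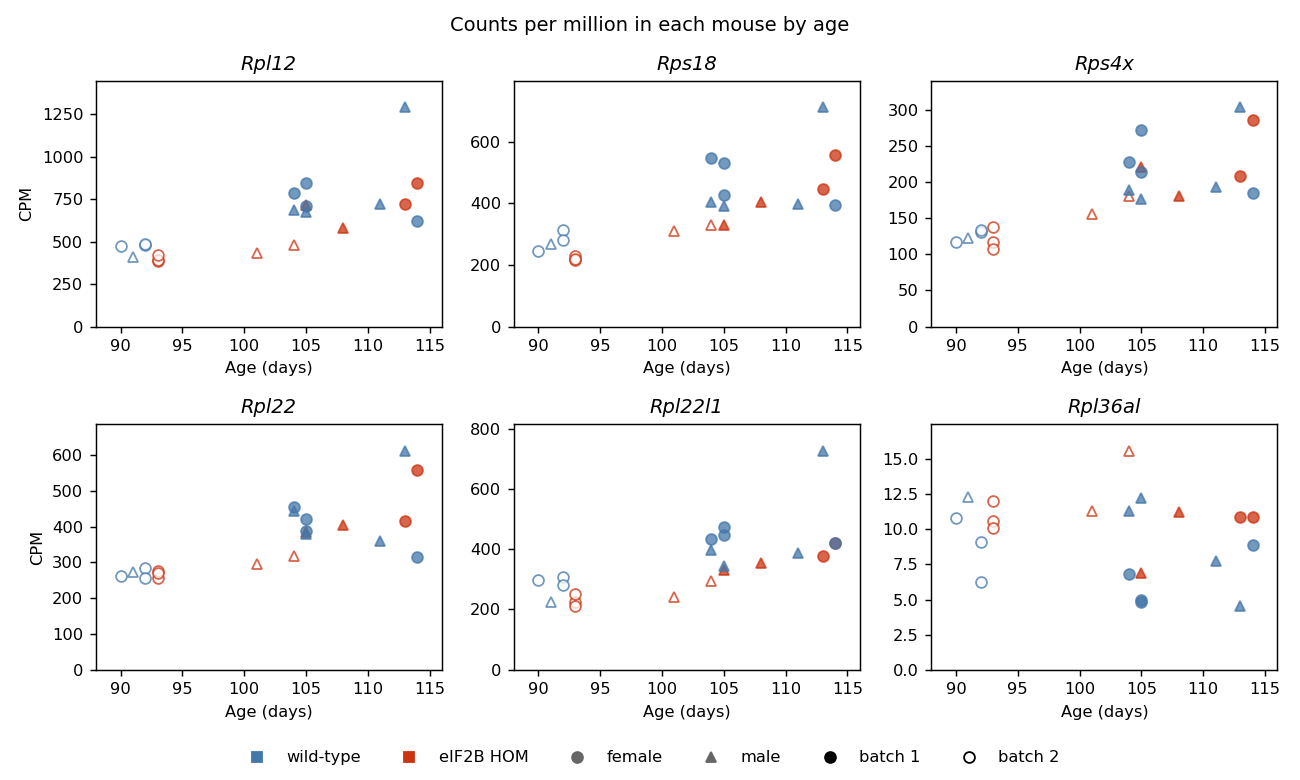
CPM (vertical axis, from 0) against age in days for 6 members; red is eIF2B HOM, blue wild-type, circles females, triangles males, filled symbols batch 1 and open symbols batch 2. Rpl12, Rps18, Rps4x, Rpl22 and Rpl22l1 are lower in the open symbols, and Rpl36al, at 4.54 to 15.6 CPM, is not.

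The genotype comparison asks whether the eIF2B mutation goes with a change of ribosomal protein mRNA. With sex and age in the model, 8 members were lower in eIF2B HOM mice and none was higher, where 1.7% of all genes were lower and 2.62% higher, 4.32% in all (edgeR's quasi-likelihood test, Benjamini-Hochberg). At an unadjusted p under 0.05 the count was 33, beside 16.5% of all genes, and neither limma voom nor DESeq2 called a member higher. The median log2 fold change (eIF2B HOM minus wild-type) was -0.17, against -0.007 over all genes, and 75 of 80 estimates were below 0, against 52 with sex and batch as covariates, 60 with sex, age and batch, 47 in batch 1 alone and 59 in batch 2 alone. No member separated the genotypes completely, while 0.0218% of all genes did so with lower and 0.424% with higher values in eIF2B HOM mice. The 8 members called were Rpl22l1, Rpl12, Rpl32 and Rpl37a of the large subunit and Rps3, Rps18, Rps24 and Rps27a of the small.

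In the fit with sex and age some cell type markers moved with genotype as well. The marker calls were not repeated with batch in the model. Of 8 oligodendrocyte markers 3 were lower in eIF2B HOM mice and none higher (median -0.32). Their summed level was 4149 to 7064 CPM (median 4583) in eIF2B HOM and 4624 to 11331 CPM (median 6815) in wild-type mice, and within batches the medians were 6132 and 7242 CPM in batch 1 and 4218 and 5080 CPM in batch 2. Of 8 astrocyte markers 1 was higher and 1 lower, and their median log2 fold change was 0.008. Their sums, which are weighted to the most abundant markers, were 4877 to 8785 CPM (median 7020) in eIF2B HOM mice. In wild-type mice they were 6958 to 11487 CPM (median 9735). None of 10 neuron markers was called by edgeR, with 1 at an unadjusted p under 0.05. The part of these shifts in the results on the members was not tested.

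Rpl22l1, the paralog of Rpl22, had the smallest p (ENSMUSG00000039221, chr3:28805436-28807424). In batch 1 its eIF2B HOM mice had 376, 422, 331 and 354 CPM and its wild-type mice 343 to 727 CPM (median 426). In batch 2 its eIF2B HOM mice had 243, 294, 226, 211 and 252 CPM and its wild-type mice 224, 307, 281 and 298. The genotypes overlapped in both batches, with the eIF2B HOM values toward the lower end in each. The log2 fold change was -0.40 ± 0.09, with an adjusted p from edgeR of 0.00311. It lay between -0.44 and -0.33 when each of the 21 mice was left out in turn, with adjusted p of 0.000347 to 0.0127. Of its end windows 75.1% are shared with other genes.

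Rps24, a gene of Diamond-Blackfan anaemia in humans, had 565 to 1050 CPM (median 689) in eIF2B HOM and 642 to 1590 CPM (median 855) in wild-type mice, and its log2 fold change was -0.34 ± 0.10 (adjusted p from edgeR 0.0333). Rps3, at the mRNA entry site, had 357 to 1050 and 413 to 1360 CPM, a change of -0.36 ± 0.11. Rps27a, made as a fusion with ubiquitin, had 519 to 953 and 603 to 1360 CPM, a change of -0.30 ± 0.09. Rps18 had 217 to 558 and 244 to 712 CPM (-0.32 ± 0.09). The large subunit members Rpl12 (-0.33 ± 0.10), Rpl32 (-0.29 ± 0.08) and Rpl37a (-0.28 ± 0.09) had like estimates. In each of these genes the ranges overlapped and the highest value was from wild-type replicate 8.

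Larger estimates that did not pass the test were -0.54 ± 0.16 for Rpl35a (adjusted p from edgeR 0.0657) and -0.50 ± 0.16 for Rps23 (0.0991). Both were chosen here after their values were seen. At the other end, Rps26, Rpl23a and Rpl7 had estimates of 0.00 ± 0.07, 0.01 ± 0.08 and 0.06 ± 0.08, and Rpl36al had 0.35 ± 0.18 (adjusted p 0.313). Rpl36al is low, with 11 ± 2.25 CPM in eIF2B HOM and 8.31 ± 2.88 in wild-type mice.

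The calls depended on how age and batch entered the model. With sex and batch in place of age no member was called by edgeR (beside 0.598% of all genes lower), 2 had an unadjusted p under 0.05, and the median fell to -0.04. With sex, age and batch together Rpl22l1 was the sole member called (-0.37, adjusted p from edgeR 0.0307), with 18 at an unadjusted p under 0.05 and a median of -0.11. With no covariate the median was -0.16, and 0 members were called, with 3 at an unadjusted p under 0.05. Within batch 1 alone the median was -0.05, 0 members were called (beside 0.133% of all genes lower) and none had an unadjusted p under 0.05. Within batch 2 alone the median was -0.06, with 0 called (beside 0.223% of all genes lower) and 2 at an unadjusted p under 0.05. For Rpl22l1 the within-batch estimates were -0.29 (adjusted p from edgeR 0.606) and -0.18 (0.717), for Rpl12 -0.14 and -0.14, for Rps24 -0.31 and -0.11 and for Rps3 -0.20 and -0.07.

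**Figure D4:**
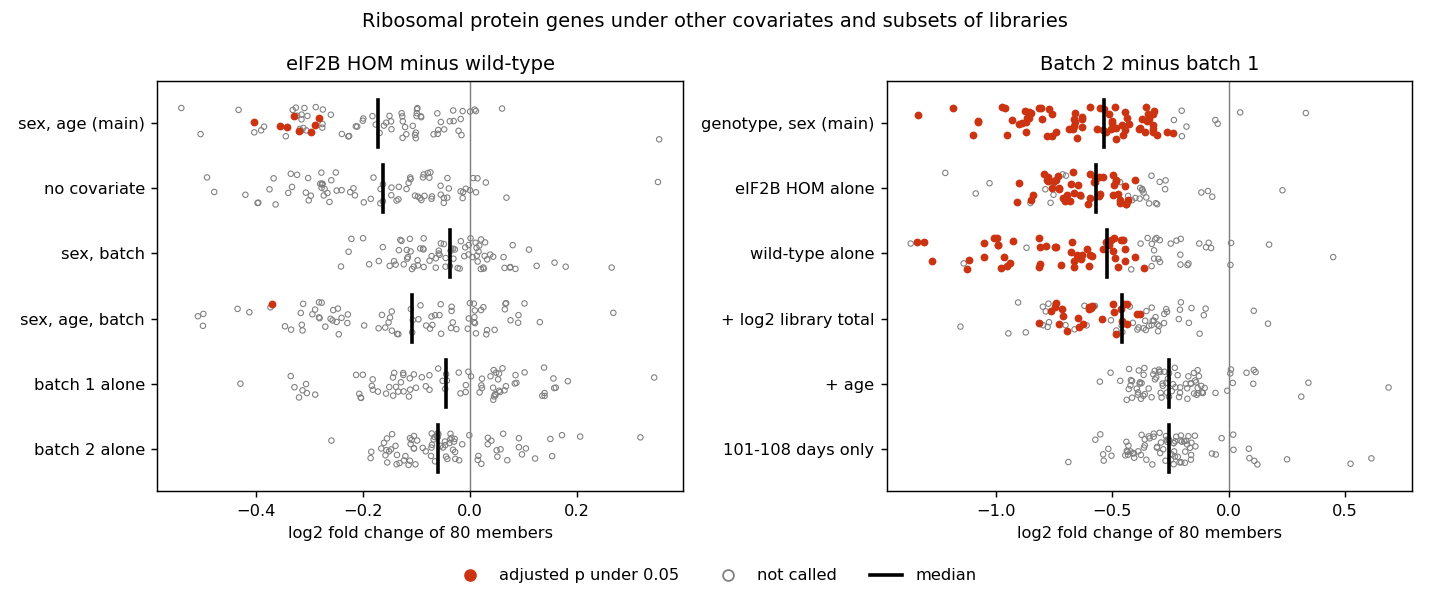
Log2 fold change (horizontal axis) of the 80 tested members for eIF2B HOM minus wild-type (left) and batch 2 minus batch 1 (right) under the covariates or subsets of libraries named on the vertical axis, spread vertically at random within a row; red points are called, grey rings are not, and bars are medians. Red points are absent or single on the left in every row but the first, and on the right they are absent with age in the model and among mice of 101 to 108 days.

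Single mice also decided the genotype count. It was 1 without wild-type replicate 8, whose member share was the highest, and also 1 without wild-type replicate 2 or without eIF2B HOM replicate 1, 5, 6 or 8. It was 2 without eIF2B HOM replicate 4 or 7 or wild-type replicate 11, 3 without wild-type replicate 1, 4 without wild-type replicate 5, 9 or 10, and 5 without wild-type replicate 3 or 12 or eIF2B HOM replicate 3 or 9. It rose to 28 without wild-type replicate 4, a batch 1 female of 114 days with the lowest member share of its batch (4.57%), and to 14 without eIF2B HOM replicate 2 or wild-type replicate 7. It stayed within 1.5 times of 8 only without wild-type replicate 6, at 7. Over the whole table the genes called lower, 156 of 9192 with all mice, were 270 without wild-type replicate 4 and 86 to 128 in the fits with 1 member called. limma voom with quality weights called 20 members lower and DESeq2 12, each including the 8, beside 253 and 184 of all 9192 genes.

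The genotype difference did not differ detectably between batches or sexes. The genotype by batch term called 0 of 80 members in edgeR, with 0 at an unadjusted p under 0.05 (beside 3.55% of all genes) and a median of -0.001, and limma voom called 0 with 1 at an unadjusted p under 0.05. The smallest p belonged to Rpl37, at -0.26 ± 0.15 (batch 2 minus batch 1 of the genotype difference, unadjusted p from edgeR 0.0919), and Rpl23a, at -0.21 ± 0.15 (0.176). Approximate 95% intervals were -0.56 to 0.03 and -0.52 to 0.09. The genotype by sex term also called 0 members in edgeR, with 0 at an unadjusted p under 0.05 (beside 2.74% of all genes) and a median of -0.14, and limma voom called 0 with 1. Rps19 had the smallest p (-0.41 ± 0.20, unadjusted p from edgeR 0.0505). Neither term called any of the 9192 genes.

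Sex by itself called no member in edgeR, beside 0.0326% of all genes, all of them higher in males. A single member, beside 4.35% of all genes, had an unadjusted p under 0.05, Rps3a1 at -0.26 ± 0.11 (male minus female), which was named after its value was seen. The 4 X-linked members had estimates of -0.04 ± 0.10 for Rps4x, -0.09 ± 0.16 for Rpl10, -0.02 ± 0.09 for Rpl36a and -0.13 ± 0.12 for Rpl39. All 4 were lower in batch 2, with Rpl10 falling from 106 ± 43.9 to 50.4 ± 11.5 CPM and Rpl39 from 422 ± 129 to 228 ± 41.2 CPM.

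Among the paralog pairs, Rpl22 and Rpl22l1 had about equal CPM. Of the end windows, 0% were shared with other genes for Rpl22 and 75.1% for Rpl22l1, and 100% for Rps27 and 0% for Rps27l. Reads may be lost unequally, so ratios of CPM between paralogs need not give relative abundance. Rpl22, whose protein binds and lowers the Rpl22l1 mRNA in mouse, had 314 to 613 CPM in batch 1 and 258 to 318 CPM in batch 2, and its genotype estimate was -0.10 ± 0.09 (adjusted p from edgeR 0.643) beside -0.40 for its paralog. Rpl22l1 CPM was 85.7 ± 6.39% of Rpl22 CPM in eIF2B HOM (SD, 9 mice) and 106 ± 15.0% in wild-type mice (12 mice), and 100 ± 17.4% in batch 1 and 93.8 ± 13.4% in batch 2. This ratio was not tested. Rps27l, a p53 target, had 7.91 ± 1.32% of the CPM of Rps27 in eIF2B HOM and 6.41 ± 0.861% in wild-type mice. The genotype estimates of the pair were -0.31 ± 0.11 for Rps27 and -0.04 ± 0.14 for Rps27l, and neither was called. Both fell between batches, Rps27 from 1240 ± 353 to 710 ± 111 CPM and Rps27l from 87.4 ± 30.6 to 49.5 ± 9.96 CPM.

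The other paralogs were low. Of the end windows, 67.2% were shared for Rpl7 and 0% for Rpl7l1, and 100% for Rpl36a and 62.7% for Rpl36al. Rpl7l1 stood at 9.2 ± 1.43% of Rpl7 in eIF2B HOM and 9.69 ± 1.84% in wild-type mice, and Rpl36al at 3.78 ± 1.13% and 2.64 ± 1.23% of Rpl36a, the X-linked gene. Rpl36al was 2.3 ± 0.91% of Rpl36a in batch 1 and 4.23 ± 0.805% in batch 2, where Rpl36a fell from 382 ± 72.7 to 257 ± 29.3 CPM. The paralogs Rpl10l, Rpl3l and Rpl39l and the canonical Rpl24 failed the filter. Rpl10l, a testis gene, had 0 counts in the 21 libraries, and 3 counts, the limit that a count of 0 allows, would be 0.0971 CPM over all of them (counting error only). Rpl3l, of heart and skeletal muscle, had 8 counts in 5 libraries, and Rpl39l, also highest in testis, 28 counts in 11 libraries. Rpl24 had 7 counts in 7 libraries. It overlaps another gene on its own strand (Gm28037) and 76.6% of its end windows are shared, and the part of this in its low count was not tested. Rpl9 and Rps27, whose end windows are all shared, had means of 1070 and 1010 CPM, and Rps10, which also overlaps a gene on its own strand, had 501 CPM. For Rpl3l, Rpl39l and Rpl24, with 8, 28 and 7 counts, no difference between genotypes or batches was detectable at this depth.

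Genes related to the ribosome did not all follow. Fau, which encodes the ubiquitin-like fusion of the small subunit protein eS30 and falls outside the naming rule, fell by batch like the members (-0.44 ± 0.08, adjusted p from edgeR 0.000276) and had a genotype estimate of -0.13 ± 0.08. Rps27rt, the other tested gene listed outside the rule, had a batch estimate of -0.02 ± 0.10 (adjusted p from edgeR 0.926). Its genotype estimate was -0.07 ± 0.10. A list of other mRNAs with a TOP start held elongation and initiation factors among further genes. Of its 19 tested mRNAs 7 were lower in batch 2, beside 11.4% of all genes, and none higher (median -0.25). Naca was at -0.59 ± 0.11 and Eif3f at -0.46 ± 0.10. By genotype 0 of the 19 were called by edgeR, 0 had an unadjusted p under 0.05, and their median was 0.03. Of 46 tested ribosome biogenesis factors, 9 were higher and 3 lower in batch 2 (median 0.03), beside 10.2% and 11.4% of all genes. Nolc1, a nucleolar phosphoprotein, was higher (0.55 ± 0.12) and Emg1, an rRNA methyltransferase, lower (-0.83 ± 0.17).

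By genotype 3 of the 46 biogenesis factors were called, beside 4.32% of all genes. Genotype calls on this and the following lists are from the fit with sex and age. They were not repeated with batch in the model. Ncl (nucleolin) was higher in eIF2B HOM mice, at 0.35 ± 0.08 (adjusted p from edgeR 0.00351), and so was the helicase Ddx21, at 0.37 ± 0.11 (0.0469). Polr1d, a subunit of RNA polymerases I and III, was lower at -0.37 ± 0.11 (0.0448). Among 16 tested regulators of TOP mRNAs 1 was called by genotype, Eif4ebp1, an inhibitor of cap-dependent initiation and a target of ATF4, at 2.90 ± 0.14. Of 9 tested chaperones of ribosomal proteins none was called by edgeR for genotype, and 2 (beside 16.5% of all genes) had an unadjusted p under 0.05. These were Rrs1 and Ltv1, with estimates of 0.33 ± 0.13 and 0.43 ± 0.20 at unadjusted p of 0.0147 and 0.0412. Of 72 tested mitochondrial ribosomal proteins, 11 were lower and 2 higher in batch 2 (median -0.06), beside 11.4% and 10.2% of all genes. By genotype none was called (edgeR), and 9 had an unadjusted p under 0.05, beside 16.5% of all genes. The smallest p from edgeR was that of Mrps21 (0.00232).

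A further set of transcripts moved with the members. Of 72 tested nuclear genes of the respiratory chain and ATP synthase, 36 were lower and 1 higher in batch 2 (median -0.27). Over all genes 11.4% were lower and 10.2% higher. In the genotype fit with sex and age 12 were lower in eIF2B HOM mice and 0 higher (median -0.18). Over all genes 1.7% were lower and 2.62% higher there. Among the 12 were Cox6b1 at -0.38 ± 0.09 and Ndufa4 at -0.56 ± 0.14. This genotype count was not repeated with batch in the model. The share of counts of the respiratory chain genes was 2.39 to 3.76% in batch 1 and 2.07 to 2.54% in batch 2. The mitochondrially encoded genes took 19.3 to 23.5% of counts in batch 1 and 18.4 to 22% in batch 2. Of the 8 of these that were tested, 4 were lower and 0 higher in batch 2 (median -0.23). By genotype 0 of the 8 were called by edgeR (median -0.13). Genes of 100 CPM or more other than the members and the mitochondrially encoded ones were also divided by their annotated length in the table. The respiratory chain genes at that level were not removed, so these classes are not separate from that list. Of the 207 of at most 2000 bases 31.4% were lower in batch 2 (median -0.10), and of the 1464 longer ones 18.2% (median 0.01). At up to 1000 bases 35.1% of 57 were lower (median -0.21). By genotype the medians of these other genes were -0.18 at up to 1000 bases, -0.11 at up to 2000 and -0.008 above it, beside -0.19 and -0.16 for the members at up to 2000 bases and above it. Of the members at that level, 38 of 42 (90.5%) were lower at up to 2000 bases and 26 of 28 (92.9%) above it. The part of transcript length, RNA quality and depth in the batch difference was not tested beyond these values and the fit with library totals.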

How the data were processed

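Groups, ages and batch numbers are those of the labels. The authors trimmed reads with skewer, aligned them with STAR to GRCm38 (Gencode M17) and counted them with featureCounts (Subread 1.6.2 and edgeR 3.40.2 in the submitters' processing notes). They deposited raw counts of 22058 protein-coding genes, in which 100% of counts of 100 or more hold 2 significant digits. The CPM values that the authors deposited beside them were not used. Among 102 pairs of libraries of a group, 0 were identical, and the closest pair differed beyond counting noise (chi-square per degree of freedom 1.48). Whether the mice share litters is not given in the labels. The fits treat each mouse as independent, so the p-values take no account of shared litters.

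The deposited counts were fitted in R 4.3.3 by the robust quasi-likelihood method of edgeR 4.0.16 after TMM scaling and a genotype-wise filterByExpr filter, and p-values were adjusted over 9192 genes at a threshold of 0.05. Genotype was fitted with sex and age, batch with genotype and sex, genotype by batch with sex, and genotype by sex with age. The SE is the log2 fold change divided by the square root of F, and approximate 95% intervals are the estimate ± 1.96 SE. log2 CPM used a prior count of 2. The fit was tested on simulated counts. At 727018 to 3100141 counts per library, members under a few CPM rest on few counts. Alternatives were limma 3.58.1 voomWithQualityWeights, DESeq2 1.42.0, other scalings, filters, covariates and subsets, and each mouse left out. Members and lists were chosen with earlier results of these data known. Members named were those called or of smallest p in each comparison, paralog pairs, X-linked genes and the 3 highest and 3 lowest of each subunit by mean CPM, and others are marked where they appear, and 1 member that the rule names is not reported here. Shared windows used Gencode M21 transcripts (GRCm38), and start sites RefSeq (GRCm38.p6).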

Additional observations from a re-analysis of the deposited data

Results flagged for a closer look

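Several values lay far from the rest of their group by Dixon's test, where the gap to the nearest value is divided by the group's range and set against a 95% critical value that chance passes in about 1 of 20 groups. Of 51 groups examined, 8 passed. Replicate 2 of the eIF2B HOM mice, a batch 1 female of 114 days, had 773134 counts and their highest member share (6.08%). In this mouse 5 members were set apart from the other eIF2B HOM mice. These were Rpl10 (163 CPM, next 83.2, ratio 0.644), Rps6 (74.9, next 33.7, ratio 0.612), Rps27 (1770, next 1090, ratio 0.557), Rps27l (136, next 84.1, ratio 0.555) and Rpl39 (586, next 367, ratio 0.534). In batch 1 wild-type mice, replicate 8, a male of 113 days, was apart in the share of all members (7.24%, next 5.66%, ratio 0.59), of large subunit genes (3.48%, next 2.73%, ratio 0.568) and of small subunit genes (3.76%, next 2.93%, ratio 0.611). The groups overlap and the members move together, so these flags are not independent. The eIF2B HOM group pools both batches, between which most members differ, so the rate of 1 in 20 need not hold for it.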

How the results depend on the processing

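The genotype count of 8 members lower was 20 with limma voom, 5 with libraries of at least 1000000 counts, 5 with the log2 library total, 1 in females, 0 in males, 0 with no covariate, 0 with sex and batch, 1 with sex, age and batch, 0 in batch 1 alone and 0 in batch 2 alone, and 1 to 28 when each mouse was left out in turn. By genotype, 31 of 9337 genes were called lower in females alone and 27 of 9130 in males alone. The medians of the members there were -0.14 in females and -0.22 in males, with 66 and 77 of 80 estimates below 0. At an unadjusted p under 0.05 (edgeR) the counts were 14 and 24. The batch count of 72 was 47 in eIF2B HOM mice alone, 27 with the log2 library total, and 0 in males, with age added or among mice of 101 to 108 days, and 68 to 74 without each mouse. The age count of 70 was 0 with batch added, 0 in batch 1 alone and 0 in batch 2 alone, and 63 to 73 without each mouse. DESeq2, RLE and upper-quartile factors and the other filters kept the genotype and batch counts within 1.5 times. The log2 library total, the full-design filter, the age window and the age alternatives were chosen after seeing the data. Why these counts moved was not tested.

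Genotype estimates of members named by the rule that changed sign follow, none of them called in either fit. They include Rpl10, Rps6 and Rpl3, at -0.34, -0.32 and -0.18 with sex and age. Over all 80 members, estimates above 0 numbered 5 with sex and age, 33 in batch 1 alone, 28 with sex and batch, 21 in batch 2 alone and 20 with sex, age and batch. With limma voom the log2 values were Rpl23a -0.0102 and Rps26 -0.0033. With libraries of at least 1000000 counts the log2 values were Rpl23a -0.091 and Rps26 -0.016. In females alone they were Rpl23a -0.021, Rpl37 0.017, Rpl7l1 0.084, Rps14 0.029 and Rps27l 0.054. In males alone they were Rpl7 -0.049 and Rps26 -0.099. With sex and batch as covariates the log2 values were Rpl10a 0.065, Rpl22 0.063, Rpl37 0.016, Rps14 0.043, Rps27l 0.18, Rps4x 0.075 and Rps6 0.013. With sex, age and batch as covariates the log2 values were Rpl37 0.046, Rps14 0.066 and Rps27l 0.0073. In batch 1 alone they were Rpl10a 0.048, Rpl22 0.067, Rpl37 0.14, Rpl7l1 0.064, Rps14 0.14, Rps27l 0.049, Rps29 0.044 and Rps4x 0.018. In batch 2 alone they were Rpl10 0.17, Rpl10a 0.062, Rpl22 0.0498, Rpl23a -0.037, Rpl3 0.016, Rps26 -0.0203, Rps27l 0.32, Rps4x 0.092 and Rps6 0.097. Rps26 was -0.0039 with DESeq2, -0.0038 with RLE factors, -0.0067 with upper-quartile factors, -0.00054 with a minimum of 10 counts. Leaving out each mouse gave -0.0524 to 0.0404 for Rpl23a, -0.056 to 0.0237 for Rpl7l1, -0.0707 to 0.0050 for Rps14, -0.0344 to 0.0384 for Rps26 and -0.12 to 0.0669 for Rps27l. For the batch difference, Rpl10 was 0.11 and Rps6 0.69 with age added, Rpl10 was 0.0897 and Rps6 0.61 among mice of 101 to 108 days, and Rpl7l1 was -0.0702 in eIF2B HOM mice alone. The median share of counts in members, without mitochondrially encoded genes in the total, was 6.45% in batch 1, 4.84% in batch 2, 5.17% in eIF2B HOM and 6.01% in wild-type mice. No paired analysis was possible because replicate numbers were given in accession order and name no shared litter or day. Counts from 727018 to 3100141 per library limit members of few CPM.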
